A study of Mus musculus with 34 samples.

Results

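The DNA replication and G1/S genes are 44 mouse genes that carry out chromosome replication or drive entry into it, out of 24475 genes counted in 34 bulk RNA-seq libraries of monocytes and macrophages. They were chosen by symbol for their known function, with earlier results of these data known. Each symbol was matched to the Entrez gene identifier used in the count table, and all 44 were found. By role they comprise 10 origin licensing genes (Orc1, Orc6, Cdc6, Cdt1 and Mcm2 to Mcm7), 6 helicase activation genes (Mcm10, Cdc45 and Gins1 to Gins4), 5 clamp and clamp loader genes (Pcna and Rfc2 to Rfc5) and 7 polymerase and primase subunits (Pola1, Pola2, Prim1, Prim2, Pold1, Pole and Pole2). The other roles are 2 single-strand binding subunits (Rpa1 and Rpa2), 5 nucleotide supply enzymes (Rrm1, Rrm2, Tyms, Tk1 and Dut), 2 lagging strand enzymes (Fen1 and Lig1), 4 chromatin and histone genes (Chaf1a, Chaf1b, Uhrf1 and Slbp) and 3 G1/S control genes (Ccne1, Ccne2 and E2f1).

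All cells came from C57/Bl6 mice. The in vivo libraries came from mice bearing 1 of 2 tumors, MC38 (a mouse colon adenocarcinoma line) or LLC (Lewis lung carcinoma). From MC38 tumors they held the monocyte subset called TuMon1 (Ly6C+ CD88+ Sca1+, n = 4) and tumor macrophages (TuMac, n = 4), and from spleens of the same tumor model Ly6C+ monocytes (spMon, n = 4). From LLC tumors they held the subset called TuMon2 (Ly6C+ CD88+ Sca1-, n = 4), TuMac (n = 4) and spMon (n = 4). TuMon1 was taken only from MC38 tumors and TuMon2 only from LLC tumors, so the subset and the tumor cannot be told apart. The culture libraries were bone marrow Ly6C+ monocytes treated with MC38 supernatant (labelled Sca1+ CD88+, n = 3), treated with LLC supernatant (labelled Sca1- CD88+, n = 3) or left untreated (n = 4). The Sca1 label differs between the supernatant groups, so label and supernatant cannot be told apart. The labels do not say whether replicates were separate animals or cultures, and the gate of the macrophages is not given in the sources used here, so p-values measure only the spread between these samples.

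Before a cell divides, the origin recognition complex, Cdc6 and Cdt1 load the MCM helicase ring onto DNA in G1, and cyclin E with its kinase then frees E2F transcription factors from the retinoblastoma protein. E2F factors raise the transcription of most replication genes together, and Mcm10, Cdc45 and the GINS complex turn the loaded ring into a moving helicase. Monocytes that have left the bone marrow are generally regarded as little dividing, whereas marrow progenitors divide actively and macrophages in tissues can do so.

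Short promoter stretches are printed for 7 of the genes because the set is known for its E2F-bound promoters and because its members moved together in most of the comparisons. Promoter windows from 250 bases before to 50 bases after the annotated start (RefSeq, GRCm38.p6) were found for 36 of the 44 genes. Capitals mark an E2F word, which is TTTGGCGC, TTTCGCGC, TTTCCCGC or TTTGGCGG or the reverse complement of any of them, and the stretches read 5′ to 3′ on the strand of the gene. The genes are a subunit of the origin recognition complex (Orc1), its partner in loading (Cdc6), helicase ring subunits (Mcm5 and Mcm6), a single-strand binding subunit (Rpa1), the catalytic subunit of the primase-bound polymerase (Pola1) and a factor that keeps DNA methylation through replication (Uhrf1).
Orc1, chr4:108579411-108579450, plus strand: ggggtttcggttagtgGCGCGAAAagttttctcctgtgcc
Cdc6, chr11:98907997-98908036, plus strand: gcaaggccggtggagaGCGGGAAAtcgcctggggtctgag
Mcm5, chr8:75109340-75109379, plus strand: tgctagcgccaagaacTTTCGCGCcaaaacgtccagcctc
Mcm6, chr1:128359792-128359831, minus strand: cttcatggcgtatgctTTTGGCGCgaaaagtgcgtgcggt
Rpa1, chr11:75348577-75348616, minus strand: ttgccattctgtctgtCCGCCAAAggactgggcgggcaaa
Pola1, chrX:93632270-93632309, minus strand: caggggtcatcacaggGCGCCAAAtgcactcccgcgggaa
Uhrf1, chr17:56304112-56304151, plus strand: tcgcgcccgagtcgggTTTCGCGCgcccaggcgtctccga

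The first capital letter lies 27 bases before the annotated start in Orc1, 138 in Cdc6, 153 in Mcm5, 110 in Mcm6, 217 in Rpa1, 138 in Pola1 and 185 in Uhrf1. An E2F word on either strand was present in the windows of 17 of the 36 genes (47.2%), in 1 of 23 genes of a mitosis list (4.35%) and in 730 of 27025 genes of the whole promoter table (2.7%). The CHR word TTTGAA, known from promoters of mitotic genes, ran the other way. It was present in 4 of the 36 replication genes (11.1%), 17 of the 23 mitosis genes (73.9%) and 5466 genes of the table (20.2%). The CCAAT box was present in 21 replication genes (58.3%), 18 mitosis genes (78.3%) and 11096 genes of the table (41.1%). The 17 replication genes with an E2F word were Orc1, Cdc6, Cdt1, Mcm3, Mcm5, Mcm6, Mcm7, Gins3, Rfc3, Pola1, Pola2, Pold1, Pole2, Rpa1, Lig1, Chaf1a and Uhrf1. A match describes the letters of the window and not bound protein, and the 4 words can overlap each other on opposite strands.

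**Figure D1:**
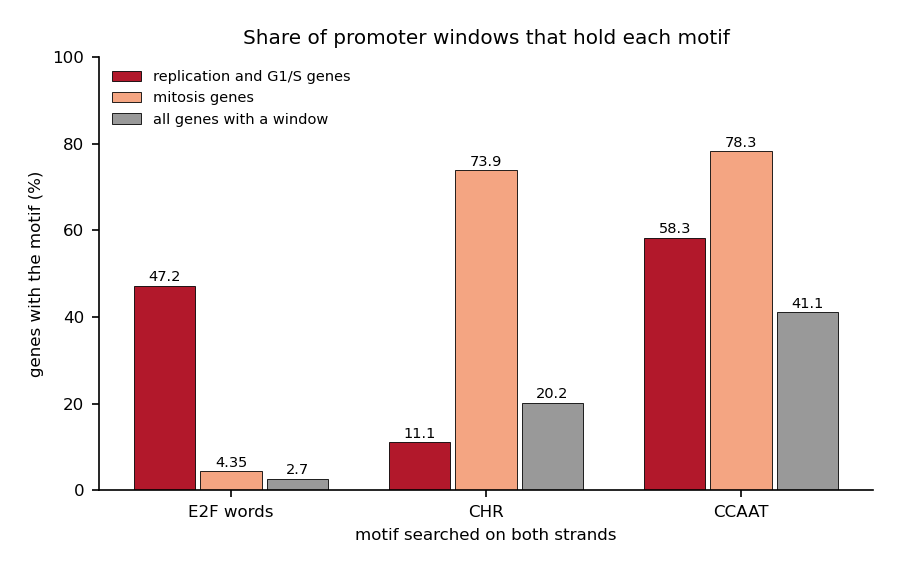
Percent of genes whose RefSeq promoter window holds an E2F word, the CHR word or a CCAAT box (y axis, percent), for the replication genes, the mitosis list and all genes of the table. The E2F bar is tallest for the replication genes (47.2%) and the CHR bar for the mitosis list (73.9%).

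Estimated counts summed to between 13047772 and 26966644 per library, and all 44 genes passed the filter on low counts in every fit. Csf1r, the growth factor receptor of monocytes and macrophages, was present at 795.1 to 2820 CPM (counts normalised to library size, with sizes scaled by the trimmed mean of M-values) in every library. The sum of 8 monocyte and macrophage genes was uneven, with means of 6730 CPM for MC38 TuMac and 13860 CPM for LLC TuMac. TuMon1 averaged 13200 CPM and TuMon2 19420 CPM, and the spleen means were 15300 CPM (MC38) and 20840 CPM (LLC). Culture means were 12370 CPM (MC38 supernatant), 25490 CPM (LLC supernatant) and 20580 CPM (untreated). Whether this sum bears on the replication gene levels was not tested. Ly6c2, which encodes part of the Ly6C antigen, averaged 1305 CPM after MC38 supernatant and 13.85 CPM after LLC supernatant, although both groups were labelled Ly6C+, and it averaged 1791 CPM in untreated culture. Of the 34 libraries, 5 stood apart by transcripts of other tissues. A fat cell list summed to 4761, 4471 and 8326 CPM in MC38 spMon replicates 1 to 3, against 20.25 CPM in replicate 4 and 8.057 to 11.56 CPM in LLC spMon. A fibroblast and endothelial list summed to 3024 CPM in MC38 supernatant replicate 3, against 166.4 and 170.1 CPM in the other replicates of that group. An epithelial list summed to 95.64 CPM in untreated culture replicate 2, against 3.337 to 3.951 CPM in the other untreated replicates. Counts called among the 44 genes, and their summed levels, that rest on these 5 libraries are given with and without them. Counts of genes with groups apart and counts for other lists are mostly given only with them. Gins3, Pola2, Tyms and E2f1 held non-whole estimated counts in all 34 libraries, so their values are uncertain. Such counts may mark reads shared with other genes, which was not tested.

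The summed level of the 44 genes was highest in untreated culture among the culture groups and in MC38 TuMac among the in vivo groups. It averaged 2489 ± 137 CPM in MC38 TuMac, 1037 ± 127 CPM in LLC TuMac, 937.4 ± 29.2 CPM in TuMon1, 511 ± 24.4 CPM in TuMon2, 539.6 ± 77.3 CPM in MC38 spMon and 665 ± 50.6 CPM in LLC spMon (SD, n = 4 each). Among these, the ranges of TuMon2 (484.8 to 537.7 CPM) and MC38 spMon (482.2 to 653.6 CPM) overlapped, as did those of LLC TuMac (921.6 to 1177 CPM) and TuMon1 (896.9 to 963.5 CPM), and those of MC38 spMon and LLC spMon (600.6 to 718.2 CPM). In culture the sum averaged 1328 ± 22.1 CPM after MC38 supernatant (n = 3), 1623 ± 18.2 CPM after LLC supernatant (n = 3) and 3598 ± 300 CPM without treatment (SD, n = 4), and no ranges overlapped. Without the libraries with transcripts of other tissues, the sum averaged 1340 ± 13.4 CPM after MC38 supernatant (n = 2) and 3744 ± 84.2 CPM without treatment (SD, n = 3), and MC38 spMon was left with replicate 4 at 653.6 CPM. In bulk samples, more cells in cycle and more RNA per cell cannot be told apart. Tumor and culture libraries were scaled separately, so their levels are not set against each other.

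Per kilobase of exon, Pcna, the sliding clamp that holds polymerases on DNA, had the highest level of the 44 genes in every group, at 174 CPM per kilobase in MC38 TuMac, 101 in TuMon1, 60.8 in TuMon2 and 153 in untreated culture. The genes next to it differed between groups. In TuMon1 they were Cdt1 (27.1 CPM per kilobase) and Slbp (23.8), and in TuMon2 Slbp (20.3) and Cdt1 (15.9). In MC38 TuMac they were Mcm3 (48.0) and Mcm6 (42.2), and in untreated culture Rrm2 (81.6) and Mcm5 (72.1). The lowest level per kilobase was that of Ccne2 in TuMon1 (0.533), Pole in TuMon2 (0.131) and Orc1 in untreated culture (1.75).

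**Figure D2:**
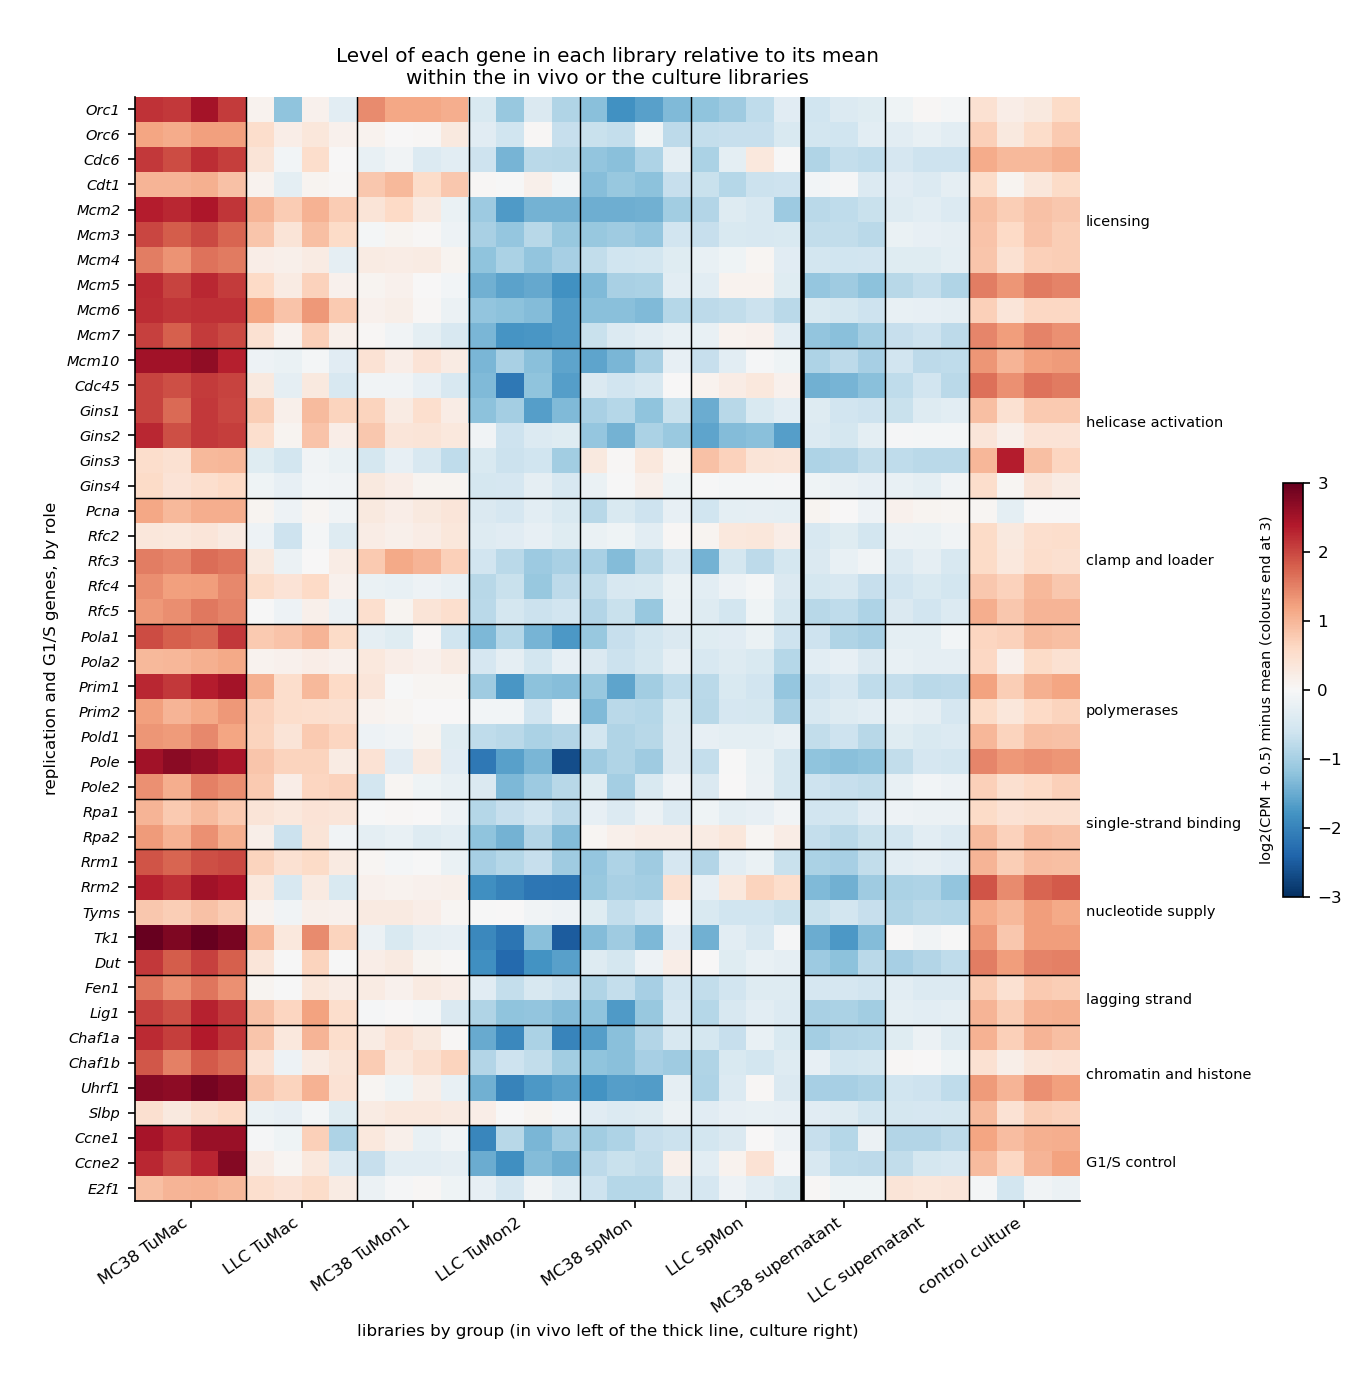
Level of each of the 44 genes (rows, grouped by role) in each of the 34 libraries (columns), as log2 CPM minus the mean of that gene over the in vivo or over the culture libraries. Red is above that mean and blue below it, with colours ending at 3 on the log2 scale. MC38 TuMac and untreated culture are the reddest blocks, and TuMon2 is mostly blue.

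Replication genes were higher in MC38 TuMon1 than in LLC TuMon2 across all 9 roles. By edgeR's quasi-likelihood test with Benjamini-Hochberg adjustment at 0.05, 41 of the 44 genes were higher and 0 lower, where 26.8% of all 13200 genes tested were higher and 22.1% lower. The number lower was also 0 at an unadjusted p under 0.05 and by DESeq2. The median log2 difference of the set was 1.06, against 0.06 for all genes. Of the genes called, 24 differed by more than 2-fold, a share that was not counted over all genes. In 40 of the 44 genes the lowest TuMon1 library lay above the highest TuMon2 library, and the exceptions were Orc6, Gins3, Pole2 and E2f1. Over all genes tested, 51.2% had groups without overlap in either direction. Gins3, Prim2 and E2f1 did not pass the test.

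Among licensing genes, which had a median log2 difference of 1.36, the helicase subunit Mcm6 had the highest mean CPM, a measure that is not per length. Mcm6 (chromosome 1, 128331575 to 128359705, GRCm38.p6) had 44.2, 45.2, 41.1 and 35.7 CPM in TuMon1 libraries, against 17.3, 16.9, 16.1 and 12.2 CPM in TuMon2 libraries. Every TuMon1 library was above every TuMon2 library, with a log2 difference of 1.42 ± 0.12 (SE) and an adjusted p of 9.07e-10 in edgeR. Orc1, a subunit of the origin recognition complex, was the gene with the largest difference of the 44. It had 4.58, 3.74, 3.78 and 3.53 CPM in TuMon1, against 0.88, 0.362, 0.908 and 0.515 CPM in TuMon2. The groups did not overlap, and the log2 difference was 2.59 ± 0.41 (adjusted p 1.33e-05, edgeR). The other helicase subunits were higher by 1.02 (Mcm3) to 1.77 (Mcm2) on the log2 scale. Cdt1, which loads the helicase, was already well expressed in TuMon2 and showed a smaller difference of 0.77 ± 0.11, with 59.8, 66.9, 50.2 and 60 CPM in TuMon1, against 34.7, 33.8, 37.9 and 32.5 CPM in TuMon2.

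The helicase activation genes split between large and small differences. Gins1 was higher by 2.0 ± 0.25, Mcm10 by 1.81 ± 0.23 and Cdc45 by 1.67 ± 0.24, whereas Gins4, highest of the role in CPM (chromosome 8, 23226610 to 23237668), was higher by 0.62 ± 0.08. Gins4 had 25.7, 24.1, 22.3 and 22.2 CPM in TuMon1, against 14.4, 14.6, 17.3 and 14.8 CPM in TuMon2, without overlap. Gins3 had a log2 difference of 0.23 (adjusted p 0.376, edgeR), with 2.76, 3.43, 2.85 and 2.27 CPM in TuMon1, against 2.9, 2.48, 2.57 and 1.77 CPM in TuMon2, where the groups overlapped. The GINS subunits act as one complex, and their transcripts ranged from no call to a 4-fold difference.

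Clamp, polymerase and single-strand binding genes were higher by smaller amounts, with median log2 differences of 0.74, 0.83 and 0.84. Pcna (chromosome 2, 132249286 to 132253180) had 154, 144, 152 and 161 CPM in TuMon1, against 92.2, 87.5, 99.4 and 90.3 CPM in TuMon2. Its log2 difference was 0.73 ± 0.10 (adjusted p 1.05e-06, edgeR), and the groups were well apart. Within the clamp loader the small subunit Rfc3 stood out at 1.88 ± 0.19, while Rfc2 differed by 0.58. Pole, the catalytic subunit of the leading strand polymerase, had 6.75, 3.74, 5.98 and 3.73 CPM in TuMon1, against 0.704, 1.24, 1.59 and 0.343 CPM in TuMon2, a log2 difference of 2.38 ± 0.30 (adjusted p 6.4e-07, edgeR). The lagging strand polymerase Pold1 (chromosome 7, 44532744 to 44548815) differed less, with 15.9, 16.4, 18.6 and 13.7 CPM in TuMon1 and 10.2, 9.82, 8.85 and 9.38 CPM in TuMon2 (0.75 ± 0.11). Rpa1 (chromosome 11, 75300259 to 75348454), which coats single-stranded DNA, had 47.8, 49.4, 48.6 and 43.3 CPM in TuMon1, against 26.2, 29.3, 32.1 and 27.5 CPM in TuMon2 (0.71 ± 0.08). None of these groups overlapped. Prim2, the large primase subunit, differed by 0.25 (adjusted p 0.167), whereas its partner Prim1 was higher by 1.71 ± 0.22.

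Nucleotide supply showed the largest median difference of any role, 1.96 on the log2 scale. Rrm2, the subunit of ribonucleotide reductase that is made mainly in S phase, had 12.8, 12.6, 12.7 and 12.9 CPM in TuMon1, against 2.9, 2.53, 2.19 and 2.17 CPM in TuMon2. The log2 difference was 2.38 ± 0.34 (adjusted p 6.83e-06, edgeR), whereas the large subunit Rrm1 (chromosome 7, 102441695 to 102469771) differed by 0.87 ± 0.14, with 33.9, 30.9, 32.3 and 28.3 CPM in TuMon1, against 16, 17.6, 19.7 and 15.2 CPM in TuMon2. Dut, which removes dUTP, was higher by 2.33 ± 0.20 and thymidine kinase Tk1 by 1.96 ± 0.37. Thymidylate synthase Tyms differed by only 0.27 ± 0.11 (adjusted p 0.0364), averaging 23.32 CPM over TuMon1 libraries and 19.3 CPM over TuMon2 libraries.

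Of the remaining roles, the lagging strand ligase Lig1 (chromosome 7, 13277175 to 13311426) had 19.9, 20.5, 19.6 and 15 CPM in TuMon1, against 10.7, 8.58, 8.63 and 8.01 CPM in TuMon2. The groups did not overlap, with a log2 difference of 1.07 ± 0.20. Chaf1a, a histone chaperone subunit that works behind the fork, was higher by 1.99 ± 0.25 and Uhrf1 by 1.79 ± 0.29. Slbp (chromosome 5, 33640055 to 33652574), which binds histone mRNA, had 61, 64.6, 63.8 and 62 CPM in TuMon1, against 58.6, 52, 54.6 and 49.7 CPM in TuMon2, a difference of only 0.23 ± 0.07 (adjusted p 0.0127). The cyclin E genes Ccne1 and Ccne2 were higher by 1.60 ± 0.32 and 1.72 ± 0.33. E2f1 (chromosome 2, 154559400 to 154569892), a transcription factor of the set, had 19.4, 21.5, 22.3 and 20 CPM in TuMon1 and 18.4, 15.4, 20.4 and 17.6 CPM in TuMon2. Its groups overlapped, and the log2 difference of 0.22 ± 0.10 did not pass the test (adjusted p 0.0936, edgeR).

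**Figure D3:**
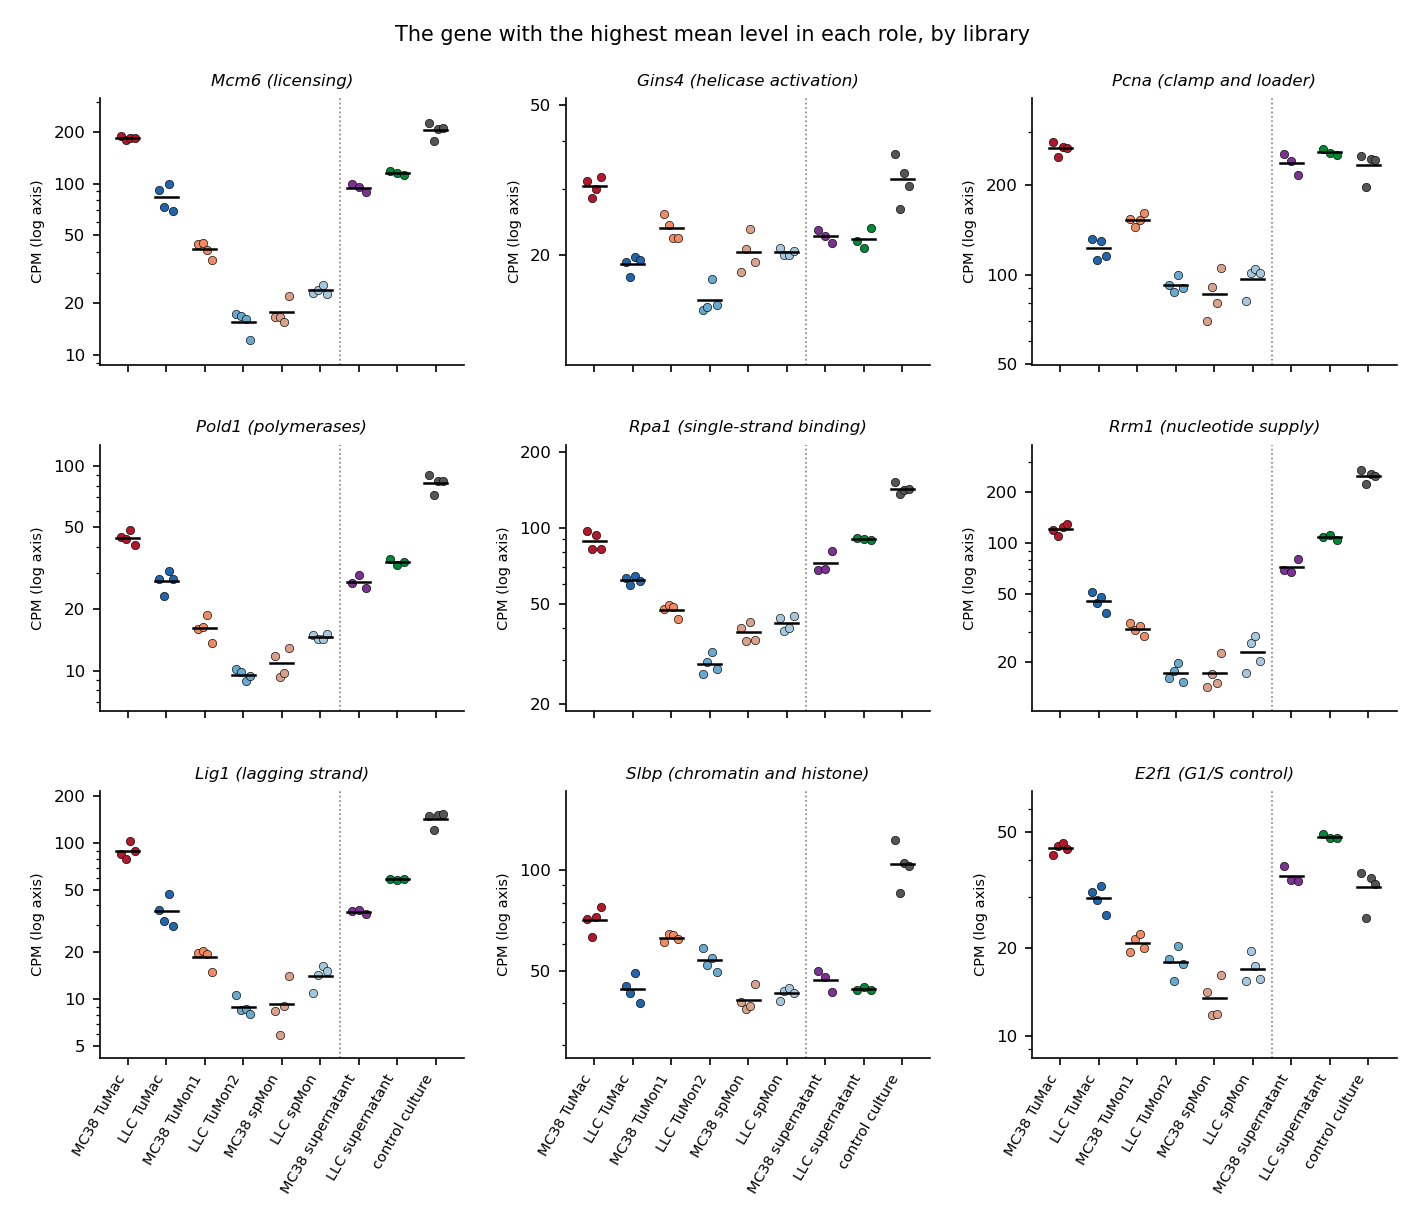
CPM (log axis) of the gene with the highest mean CPM in each of the 9 roles, in every library, with points for libraries and bars for group means; the dotted line parts the in vivo from the culture libraries, which were scaled separately. Mcm6 lies at 35.7 to 45.2 CPM in TuMon1, above its 12.2 to 17.3 CPM in TuMon2, whereas the E2f1 points of those groups overlap.

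Marker lists of other cells differed between these monocyte groups in both directions. The 8-gene fibroblast and endothelial list summed to 228.9 to 311.1 CPM in TuMon1 and 48.81 to 74.82 CPM in TuMon2, with Kdr at 116.9 to 195.1 CPM in TuMon1 against 5.549 to 7.188 CPM in TuMon2 and Col1a1 at 2.659 to 5.14 CPM against 0.454 to 1.32 CPM. The epithelial list summed to 6.048 to 8.322 CPM in TuMon1 and 42.09 to 67.22 CPM in TuMon2, most of it Cdh1. Its defining marker Epcam was at most 0.1477 CPM in TuMon1 and at most 0.3784 CPM in TuMon2. A T and NK cell list summed to 10.87 to 13.05 CPM in TuMon1 and 4.004 to 4.489 CPM in TuMon2, where Cd3e was at 0 in all 4 libraries. The part of these cells in the differences was not tested.

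Between the macrophages of the same tumors, all 44 genes were higher in MC38 TuMac than in LLC TuMac by edgeR, where 22.4% of all genes were higher and 22.9% lower. The median log2 difference was 1.39, against 0 for all genes, and 32 genes differed by more than 2-fold, a share that was not counted over all genes. In none of the 44 did the groups overlap, where 43.8% of all genes had groups without overlap. The largest differences were those of Orc1 (2.90 ± 0.38, adjusted p 8.76e-07), the helicase activator Mcm10 (2.82 ± 0.21, adjusted p 8.02e-11) and cyclin E1 gene Ccne1 (2.64 ± 0.28, adjusted p 3.13e-08). Mcm10 had 34.4, 34, 38.1 and 29.9 CPM in MC38 TuMac, against 4.91, 4.78, 5.3 and 4.26 CPM in LLC TuMac. Ccne1 had 19.9, 17, 21.4 and 21.5 CPM in MC38 TuMac, against 3.08, 2.85, 5.5 and 1.42 CPM in LLC TuMac. Orc1 had 8.04, 7.74, 10.2 and 7.68 CPM in MC38 TuMac, against 1.56, 0.322, 1.59 and 1.03 CPM in LLC TuMac. In each of these genes all MC38 libraries stood well above all LLC libraries.

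The G1/S control role had the largest median in macrophages, 2.48, with both cyclin E genes ahead of E2f1, which differed by 0.57 ± 0.10 (adjusted p 6e-05, edgeR). E2f1 had 41.7, 44.6, 45.8 and 43.8 CPM in MC38 TuMac, against 31.2, 29.2, 32.5 and 25.9 CPM in LLC TuMac, without overlap. Pcna had 278, 247, 268 and 266 CPM in MC38 TuMac, against 132, 112, 130 and 115 CPM in LLC TuMac (1.12 ± 0.10). Mcm6 had 189, 179, 186 and 184 CPM in MC38 TuMac, against 91.2, 73.5, 98.9 and 68.9 CPM in LLC TuMac (1.15 ± 0.11). In both genes all MC38 libraries were above all LLC libraries. The smallest difference was that of Rpa1, 0.52 ± 0.08 (adjusted p 4.07e-06), with 96.8, 82.4, 93.3 and 82.6 CPM in MC38 TuMac, against 63.1, 59.5, 64.2 and 61.6 CPM in LLC TuMac. Of the other role leads, Rrm1 differed by 1.40, Lig1 by 1.28, Pold1 by 0.70, Gins4 by 0.68 and Slbp by 0.68. Here too marker lists differed, with the epithelial list at 5.972 to 8.318 CPM in MC38 TuMac and 92.34 to 144.5 CPM in LLC TuMac, where Epcam was at 0 in all 4 libraries and Cdh1 at 89.22 to 139.9 CPM. The fibroblast and endothelial list summed to 167.1 to 203.7 CPM in MC38 TuMac and 31.19 to 52.12 CPM in LLC TuMac. A B cell list summed to 28.8 to 31.71 CPM in MC38 TuMac, nearly all of it Cd79b, and to 2.573 to 4.973 CPM in LLC TuMac. The part of these cells was not tested.

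Within each tumor, macrophages had higher levels of replication genes than monocytes. In MC38 tumors, 42 of the 44 genes were higher in TuMac than in TuMon1 and 0 lower, where 24.8% of all genes were higher and 27.9% lower, with a median of 1.65 against -0.02 for all genes. The number lower was 0 at an unadjusted p under 0.05 and by DESeq2 too. The 2 genes that did not pass were Cdt1 (0.21, adjusted p 0.108) and Rfc2 (0.09, adjusted p 0.438). The largest differences in edgeR were those of Tk1 (3.40 ± 0.30, adjusted p 7.69e-09), Ccne2 (3.06 ± 0.27, adjusted p 1.8e-09) and Uhrf1 (2.83 ± 0.26, adjusted p 1.73e-08). Tk1 had 59.3, 48.3, 62.8 and 49.8 CPM in MC38 TuMac, against 5.66, 4.58, 5.26 and 5.34 CPM in TuMon1. Uhrf1 had 91.4, 88.1, 100 and 93.1 CPM in MC38 TuMac, against 13.8, 12.1, 15.1 and 11.3 CPM in TuMon1, so that in both genes the groups were far apart. The groups were apart in 41 of the 44 genes and in 52.4% of all genes. The Mcm2 to Mcm7 genes were higher by 1.33 (Mcm4) to 2.21 (Mcm7), whereas Pcna was higher by 0.79, Gins4 by 0.37 and Slbp by 0.18. Of all called genes, 47.1% were higher in MC38 TuMac, and 58.1% were with upper quartile scaling. The B cell list summed to 6.703 to 8.224 CPM in TuMon1, below its level in MC38 TuMac, and the neutrophil list to 9.615 to 14.7 CPM in MC38 TuMac and 27.96 to 34.77 CPM in TuMon1, and their part was not tested.

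In LLC tumors, 38 of the 44 genes were higher in TuMac than in TuMon2 and 1 was lower, where 29.2% of all genes were higher and 26.3% lower, with a median of 1.37 against 0.06 for all genes. Tk1 (3.22 ± 0.35, adjusted p 1.56e-07), Pole (3.0 ± 0.30, adjusted p 1.27e-08) and Uhrf1 (2.60 ± 0.29, adjusted p 2.21e-07) led in edgeR. Pole had 9.11, 7.99, 8.01 and 5.88 CPM in LLC TuMac, and TuMon2 had 0.343 to 1.59 CPM, well below. The gene that was lower was Slbp, with 44.9, 42.9, 49.2 and 39.9 CPM in LLC TuMac, against 58.6, 52, 54.6 and 49.7 CPM in TuMon2 (-0.28 ± 0.07, adjusted p 0.00243). In Slbp, the groups did not overlap. The genes that did not pass were Orc1 (0.79, adjusted p 0.123), Cdt1 (-0.04, adjusted p 0.781), Gins3 (0.44, adjusted p 0.0647), Rfc2 (0.06, adjusted p 0.64) and Tyms (0.14, adjusted p 0.283). The groups were apart in 38 of the 44 genes and in 51.6% of all genes. Of all called genes, 52.6% were higher in LLC TuMac, and 66.1% were with upper quartile scaling. The neutrophil list summed to 9.418 to 17.57 CPM in LLC TuMac and 84.15 to 122.5 CPM in TuMon2, and the epithelial list to 92.34 to 144.5 CPM in LLC TuMac and 42.09 to 67.22 CPM in TuMon2, and their part was not tested.

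The macrophage minus monocyte differences of the tumors were then set against each other in an interaction term. For 37 of the 44 genes this difference of differences did not pass the test, and for 7 it was larger in MC38 tumors and for 0 smaller (1 at an unadjusted p under 0.05 and 0 by DESeq2), where 6.25% of all genes were called larger and 8.27% smaller. The 7 were Cdc6 (1.20 ± 0.37, adjusted p 0.0317), Mcm10 (1.01 ± 0.31, adjusted p 0.0304), Gins3 (0.95 ± 0.28, adjusted p 0.022), Gins2 (0.81, adjusted p 0.0332), Fen1 (0.57, adjusted p 0.0114), Tyms (0.47, adjusted p 0.036) and Slbp (0.46, adjusted p 0.00356) in edgeR. The count rested on single libraries. It was 2 without MC38 TuMac replicate 3, 3 without MC38 TuMac replicate 1 or TuMon1 replicate 4, and 4 without LLC TuMac replicate 2 or 4, TuMon1 replicate 3 or MC38 TuMac replicate 4.

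Set against spleen monocytes of the same tumor model, replication genes were mostly higher in the MC38 tumor monocytes and mostly lower in the LLC tumor monocytes. In TuMon1, 36 genes were higher than in MC38 spMon and 2 lower, where 33.5% of all genes were higher and 36.6% lower, with a median of 0.79 against -0.04 for all genes and groups apart in 33 of the 44 genes and 58.9% of all genes. Orc1 led at 4.56 ± 0.48 (adjusted p 7.38e-09, edgeR), with 4.58, 3.74, 3.78 and 3.53 CPM in TuMon1, against 0.293, 0.0389, 0.112 and 0.265 CPM in MC38 spMon, where it was hardly detected. Rfc3 followed at 1.90 ± 0.18 (adjusted p 1.86e-09), with 15.9, 20.5, 18.9 and 15.3 CPM in TuMon1, against 4.39, 3.35, 4.89 and 6.35 CPM in MC38 spMon. Cdt1 was higher by 1.89 ± 0.11 (adjusted p 1.92e-13), with 13.8, 15.1, 14.3 and 20.8 CPM in MC38 spMon. All 3 genes were without overlap between the groups. The genes that were lower in TuMon1 were Gins3 (-0.78 ± 0.19, adjusted p 0.00102) and the single-strand binding subunit Rpa2 (-0.50 ± 0.15, adjusted p 0.00638). Rpa2 had 9.06, 9.46, 8.5 and 8.92 CPM in TuMon1, against 11.6, 12.5, 13.2 and 13.2 CPM in MC38 spMon. Without the libraries that held transcripts of other tissues, which left MC38 spMon replicate 4 as the lone spleen library of that tumor, 21 genes were higher and 0 lower by edgeR (1 lower at an unadjusted p under 0.05), with a median of 0.46, where 27.4% of all 13802 genes tested were higher and 25.8% lower with a median of 0.04. That lone library is assumed in the fit to vary like the other groups.

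In TuMon2, 30 genes were lower than in LLC spMon and 5 higher, where 34% of all genes were lower and 28.6% higher, with a median of -0.69 against -0.05 for all genes and groups apart in 28 of the 44 genes, near the 60.3% of all genes. Rrm2 fell most, by 2.63 on the log2 scale (SE 0.34, adjusted p 8.5e-07, edgeR), with 2.9, 2.53, 2.19 and 2.17 CPM in TuMon2, against 9.75, 14.7, 18.7 and 17 CPM in LLC spMon. Cyclin E2 gene Ccne2 (-2.31 ± 0.32, adjusted p 8.68e-07) and Cdc45 (-2.14 ± 0.24, adjusted p 2.55e-08) followed. Cdc45 had 1.5, 0.621, 1.66 and 1.09 CPM in TuMon2, against 4.91, 5.28, 5.73 and 4.94 CPM in LLC spMon, so the groups were far apart. The 5 genes that were higher in TuMon2 were Gins2 (1.31 ± 0.20, adjusted p 4.68e-06), Cdt1 (0.74 ± 0.11, adjusted p 2.77e-06), Prim2 (0.53 ± 0.15, adjusted p 0.0034), Tyms (0.53 ± 0.11, adjusted p 0.000149) and Slbp (0.33 ± 0.07, adjusted p 0.00047). Cdt1 had 34.7, 33.8, 37.9 and 32.5 CPM in TuMon2, against 21.1, 18.7, 21.5 and 21.8 CPM in LLC spMon, without overlap, although its partner in helicase loading, Cdc6, had only 1.19 to 2.38 CPM in TuMon2. The neutrophil list summed to 84.15 to 122.5 CPM in TuMon2. In the spleens it summed to 532.9, 638.5, 517.9 and 2290 CPM in MC38 spMon and to 2183 to 3481 CPM in LLC spMon. A myeloid progenitor list summed to 5.252 to 6.804 CPM in TuMon1 and 5.326 to 10.13 CPM in TuMon2, against 54.32 to 78.07 CPM in MC38 spMon and 83.32 to 142.9 CPM in LLC spMon. A dendritic cell list summed to 12.5 to 17.34 CPM in TuMon1 and 5.07 to 6.953 CPM in TuMon2, against 42.43 to 57.6 CPM in MC38 spMon and 79.05 to 82.41 CPM in LLC spMon. The T and NK cell list summed to 14.6 to 15.81 CPM in MC38 spMon and 26.95 to 35.99 CPM in LLC spMon, above its levels in TuMon1 and TuMon2, and the part of these cells was not tested.

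The tumor minus spleen difference was larger in the MC38 model than in the LLC model for 39 of the 44 genes and smaller for 0, where 23.8% of all genes were called larger and 19.1% smaller. The median difference of differences was 1.55, against 0.04 for all genes, and the number smaller was 0 also at an unadjusted p under 0.05 and by DESeq2. Orc1 (4.41 ± 0.67, adjusted p 1.28e-05), Rrm2 (3.31 ± 0.45, adjusted p 7.06e-06) and Pole (3.0 ± 0.40, adjusted p 2.94e-06) led in edgeR, and Orc6, Gins2, Gins3, Prim2 and Tyms did not pass. Without the 5 libraries, which again left MC38 spMon replicate 4 alone, the count was 33 with a median of 1.08, where 14.2% of all genes were called larger.

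Between the spleens, 19 genes were lower in MC38 spMon than in LLC spMon and 0 higher, where 14% of all genes were lower and 14.4% higher, with a median of -0.40 against -0.07 for all genes. The number higher stayed at 0 at an unadjusted p under 0.05 and by DESeq2. Orc1 (-1.81 ± 0.53, adjusted p 0.0121), Rrm2 (-0.92 ± 0.29, adjusted p 0.0218) and Uhrf1 (-0.91 ± 0.28, adjusted p 0.0175) led in edgeR. Rrm2 had 4.98, 5.72, 5.52 and 16.1 CPM in MC38 spMon, against 9.75, 14.7, 18.7 and 17 CPM in LLC spMon. Uhrf1 had 3.52, 3.89, 3.84 and 10.9 CPM in MC38 spMon, against 6.78, 9.94, 13.7 and 9.75 CPM in LLC spMon. In both genes MC38 spMon replicate 4, the only library of its group at the low fat cell level, lay within the LLC spMon range and the other 3 lay below it. Orc1 was near the floor, with 0.293, 0.0389, 0.112 and 0.265 CPM in MC38 spMon, against 0.323, 0.409, 0.618 and 1 CPM in LLC spMon. Its groups did not overlap, so here replicate 4 also lay below the LLC spMon range. Groups were apart in 9 of the 44 genes and in 14.3% of all genes. Without the 5 libraries with transcripts of other tissues, 3 of them MC38 spMon, edgeR called 0 genes (1 higher and 0 lower at an unadjusted p under 0.05), with a median of -0.04. That fit, with 1 MC38 spleen library, also called only 6 genes higher and 16 lower of all 13802 tested. When only the 2 spleen groups were fitted, 2 of the 44 were called lower, near the 3.92% of all genes called lower in that fit. A red cell precursor list also summed to 456.4, 373.2 and 649 CPM in those 3 libraries, against 3.11 CPM in MC38 spMon replicate 4 and 6.053 to 9.951 CPM in LLC spMon. The share of all called genes that were higher in MC38 spMon was 50.7%, and it was 62.1% with relative log expression scaling, 66.8% with upper quartile scaling and 60.3% with DESeq2.

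In culture, replication genes were lower after either tumor supernatant than in untreated bone marrow monocytes, and lower after MC38 than after LLC supernatant. After MC38 supernatant, 42 of the 44 genes were lower than in untreated culture and 0 higher, where 32.5% of all genes were lower and 35.4% higher, with a median of -1.60 against 0.05 for all genes. The number higher was 0 at an unadjusted p under 0.05 and by DESeq2 as well. Rrm2 had 21.2, 19.2 and 25.4 CPM after MC38 supernatant, against 198, 144, 179 and 194 CPM in untreated culture (-3.02 ± 0.14, adjusted p 2.44e-08, edgeR). Cdc45 had 7.33, 7.69 and 8.52 CPM after MC38 supernatant, against 66.6, 55.3, 66 and 62.6 CPM in untreated culture (-2.99 ± 0.10, adjusted p 2.33e-09). Tk1 had 8.28, 6.96 and 9.54 CPM after MC38 supernatant, against 60.3, 42.4, 58.2 and 58.1 CPM in untreated culture (-2.72 ± 0.15, adjusted p 6.81e-08). All treated libraries were far below all untreated libraries in these genes, and the groups were apart in 42 of the 44, where 65.4% of all genes had groups without overlap. Without the 5 libraries 42 genes were again lower with a median of -1.59, where 37.1% of all genes were lower. Mcm6 had 100, 95.4 and 88.8 CPM after MC38 supernatant, against 225, 177, 210 and 212 CPM in untreated culture, a log2 difference of -1.12 ± 0.08.

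Pcna and E2f1 were the exceptions. Pcna had 254, 241 and 215 CPM after MC38 supernatant, against 250, 196, 244 and 242 CPM in untreated culture (0.03, adjusted p 0.805). E2f1 had 38.1, 34.2 and 33.9 CPM after MC38 supernatant, against 36, 25.3, 34.6 and 33.2 CPM in untreated culture (0.14, adjusted p 0.278). In both genes the groups overlapped, while the clamp loader genes and the cyclin E genes beside them were lower.

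After LLC supernatant, 42 genes were lower than in untreated culture and 1 higher, where 36.1% of all genes were lower and 32.3% higher, with a median of -1.23 against -0.07 for all genes. Rrm2 (-2.77 ± 0.14, adjusted p 4.41e-08), Dut (-2.42 ± 0.13, adjusted p 7.39e-08) and Cdc45 (-2.31 ± 0.10, adjusted p 1.18e-08) led in edgeR. Dut had 6.36, 6.97 and 7.6 CPM after LLC supernatant, against 39.5, 32.5, 37.9 and 38.9 CPM in untreated culture, far below. The gene that was higher was E2f1, with 49.1, 47.6 and 47.7 CPM after LLC supernatant, against 25.3 to 36 CPM in untreated culture (0.57 ± 0.11, adjusted p 0.000721). Pcna was the gene that did not pass (0.14, adjusted p 0.182), at 264, 255 and 251 CPM after LLC supernatant, all just above the untreated libraries. The groups were apart in all 44 genes, where 72.1% of all genes had groups without overlap. Without the 5 libraries the counts were again 42 lower and 1 higher with a median of -1.31, where 41.3% of all genes were lower and 38.9% higher. A myeloid progenitor list summed to 38.85 to 41.36 CPM after MC38 supernatant, 12.07 to 12.77 CPM after LLC supernatant and 1363 to 1709 CPM in untreated culture. Mpo, a granule enzyme gene of early myeloid cells, was at 1.468 to 3.122 CPM after MC38 supernatant, 0.3027 to 0.5124 CPM after LLC supernatant and 746.2 to 911.4 CPM in untreated culture. The part of progenitors in the differences was not tested.

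Set directly against LLC supernatant, 22 genes were lower after MC38 supernatant and 1 was higher, where 18.5% of all genes were lower and 21.6% higher, with a median of -0.29 against 0.05 for all genes. Tk1 had 8.28, 6.96 and 9.54 CPM after MC38 supernatant, against 24.1, 22.3 and 24 CPM after LLC supernatant (-1.50 ± 0.15, adjusted p 3.47e-05, edgeR), and it was the gene that differed by more than 2-fold. Lig1 had 36.7, 37.5 and 35.3 CPM after MC38 supernatant, against 59, 58.5 and 59 CPM after LLC supernatant (-0.68 ± 0.08, adjusted p 0.000139). Cdc45 had 7.33 to 8.52 CPM after MC38 supernatant, below its 12.2, 14 and 11.7 CPM after LLC supernatant (-0.68 ± 0.10, adjusted p 0.000493). The gene that was higher was Tyms, with 20.2, 21.9 and 19.7 CPM after MC38 supernatant, against 17.1, 18 and 17.5 CPM after LLC supernatant (0.24 ± 0.08, adjusted p 0.0348). Groups were apart in 29 of the 44 genes, near the 59.9% of all genes. Rrm1 (-0.57), E2f1 (-0.43), Pold1 (-0.32), Rpa1 (-0.31) and Mcm6 (-0.27) were lower too, whereas Pcna (-0.11, adjusted p 0.372), Slbp (0.09, adjusted p 0.541) and Gins4 (0.03, adjusted p 0.865) did not pass. The count was 15 without MC38 supernatant replicate 1. Without the libraries that held transcripts of other tissues 27 genes were lower and 3 higher, where 28.3% of all genes were lower and 30.5% higher.

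The MC38 against LLC difference of monocytes thus had opposite signs in tumors and in culture for much of the set. Of the 44 genes, 21 were higher in TuMon1 than in TuMon2 and lower after MC38 than after LLC supernatant, and 19 were higher in TuMon1 and not called between the supernatants. Of the 12294 genes tested in both fits, 4.06% were higher in TuMon1 and lower after MC38 supernatant. Tyms was higher in both settings, and E2f1 was not called in tumors and was lower in culture. In a fit of all 34 libraries, the tumor difference exceeded the culture difference for 40 genes and fell short of it for 0, where 14.8% of all 14582 genes tested were called larger and 16% smaller. The median difference of differences was 1.53, against -0.05 for all genes, and the number that fell short was 0 at an unadjusted p under 0.05 and by DESeq2 too. Tk1 (3.51 ± 0.44, adjusted p 4.88e-07), Pole (3.08 ± 0.36, adjusted p 1.27e-07) and Orc1 (3.08 ± 0.57, adjusted p 0.000119) led in edgeR, and Gins3, Prim2, Tyms and Slbp did not pass. Without the 5 libraries the count was again 40 with a median of 1.52, where 18.9% of all genes were called larger. Tissue, culture and the source of the cells differ together between the settings and cannot be told apart.

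**Figure D4:**
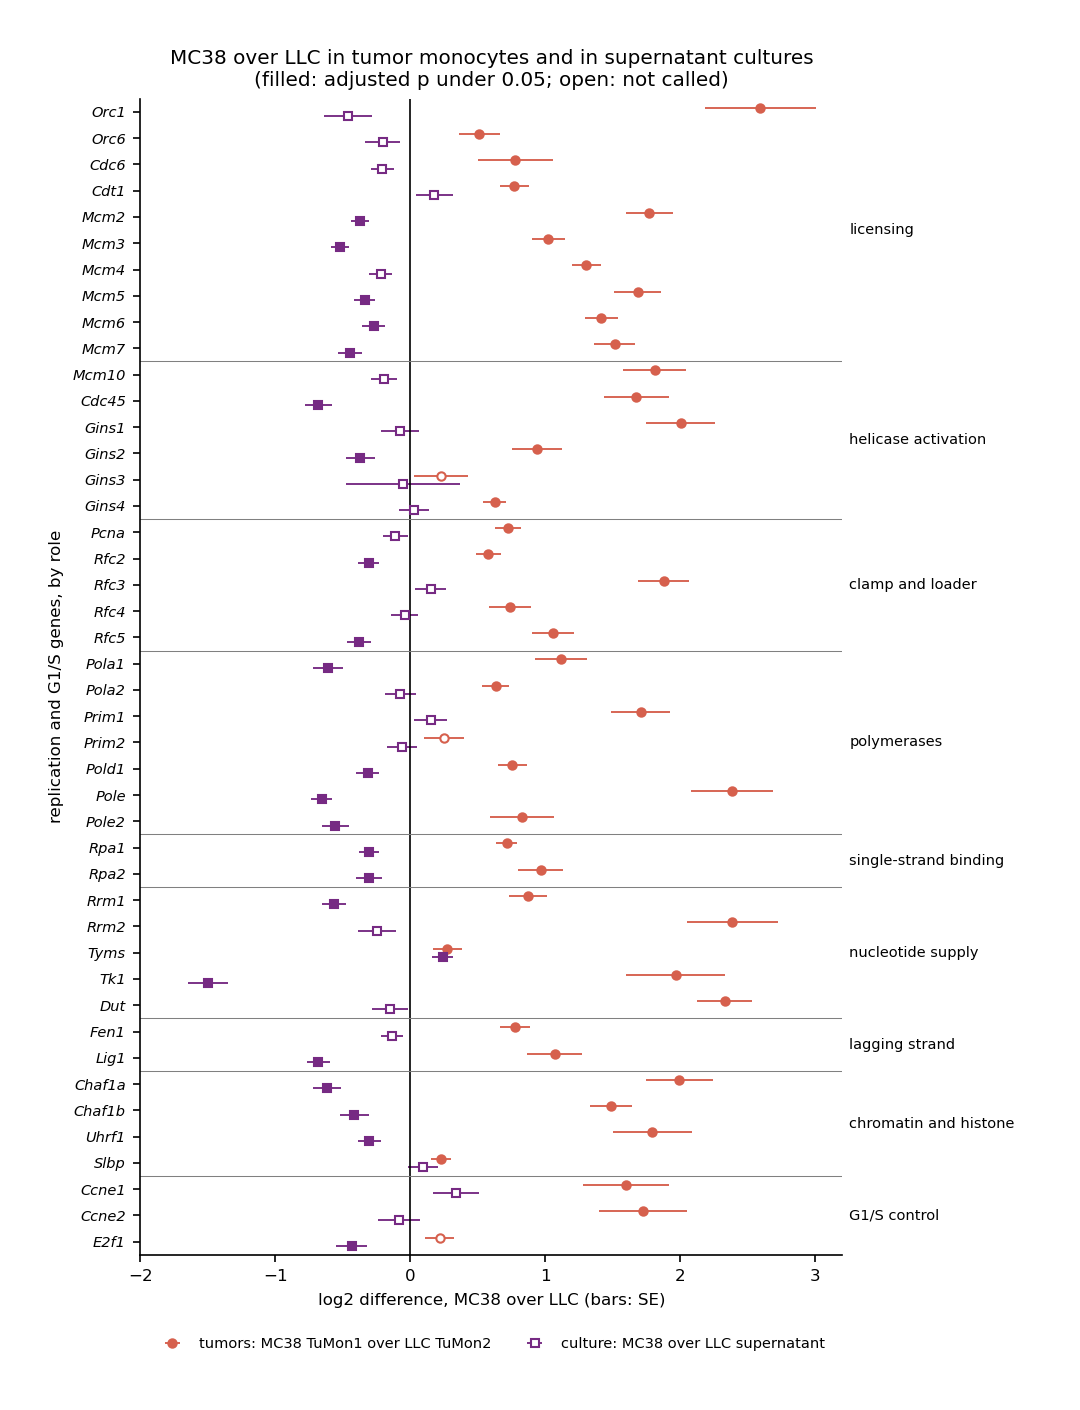
MC38 minus LLC log2 difference of each of the 44 genes, as TuMon1 over TuMon2 in tumors (circles) and MC38 over LLC supernatant in culture (squares), with bars of 1 SE; filled symbols passed the test. Circles lie right of 0 for all 44 genes, while squares lie left of 0 for 22 genes called lower and right of it for Tyms.

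A list of 26 genes of mitosis, the step that follows replication, was set beside the replication genes. In TuMon1 against TuMon2, 25 of the 26 were higher and 1 was not called, with a median of 1.58, where 26.8% of all genes were higher. The summed level of the mitosis list in TuMon1 was 3.04 times that of TuMon2, while the replication sum was 1.83 times. In MC38 TuMac against LLC TuMac all 26 were higher, where 22.4% of all genes were, with ratios of sums of 3.66 for mitosis and 2.4 for replication. After MC38 supernatant all 26 were lower than after LLC supernatant, where 18.5% of all genes were lower. The ratio of sums was 0.427 for mitosis and 0.818 for replication. Without the 5 libraries all 26 were again lower, where 28.3% of all genes were, with ratios of 0.42 for mitosis and 0.825 for replication. In TuMon1 against MC38 spMon, 13 mitosis genes were higher, 2 lower and 11 not called, where 33.5% of all genes were higher and 36.6% lower. The ratios were 1.31 for mitosis and 1.74 for replication. That direction rested on the MC38 spMon libraries with fat cell transcripts, whose mitosis sums were 114, 127.1 and 120.5 CPM, against 280.5 CPM in replicate 4. Against replicate 4 alone the mitosis ratio was 0.751 and the replication ratio 1.43. The median log2 difference of the mitosis list was then -0.16, against 0.04 for all genes. The replication sum was 1.9 times the mitosis sum in MC38 TuMac, 2.89 times in LLC TuMac, 4.45 times in TuMon1 and 7.38 times in TuMon2. It was 2.28 times after MC38 supernatant, 1.19 times after LLC supernatant and 0.631 times in untreated culture, the group in which mitosis genes summed higher than replication genes. Without the 5 libraries it was 2.34 times after MC38 supernatant and 0.622 times in untreated culture. These ratios are a description of levels in CPM, which are not per length.

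**Figure D5:**
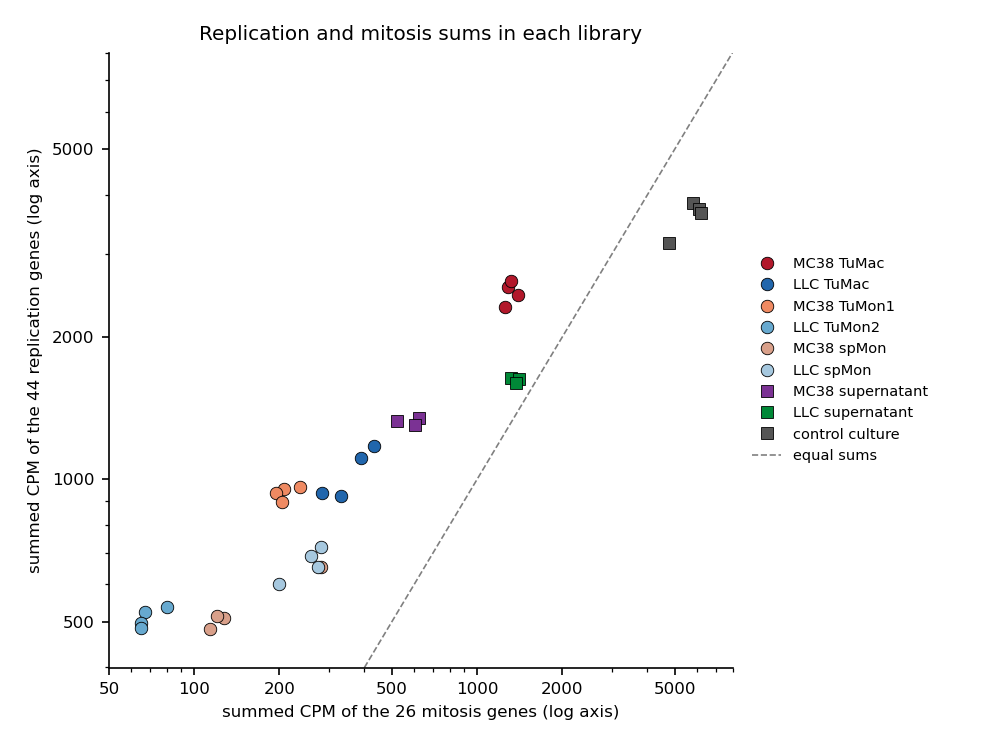
Summed CPM of the 44 replication genes against summed CPM of the 26 mitosis genes (both log axes), with a point for each library and a dashed line where the sums are equal. The 4 untreated culture libraries lie on the mitosis side of the line, and the TuMon2 libraries are farthest on the other side.

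Around the replication machinery, a list of 27 further origin and fork genes followed the set less fully. In TuMon1 against TuMon2, 17 of the 27 were higher, 2 lower and 8 not called with a median of 0.45. In that comparison 26.8% of all genes were higher and 22.1% lower. Timeless, a fork protection factor, was higher by 1.25 ± 0.12 (adjusted p 9.03e-09, edgeR). In a checkpoint and repair list, 9 of 15 were higher and 6 not called, with the repair gene Brca1 at 2.53 ± 0.31 (adjusted p 3.9e-07). Brca1 averaged 3.541 CPM in TuMon1 and 0.5957 CPM in TuMon2. Of 8 nucleotide enzymes outside the set 7 were higher and 1 not called, with deoxycytidine kinase Dck at 0.99 ± 0.07 (mean 281.6 CPM over TuMon1 and 141.3 CPM over TuMon2). Of 18 RB, E2F and DREAM genes 9 were higher and 4 lower, and the part that was lower was near that of all genes. Mybl2 was higher by 2.46 ± 0.19 and E2f2 lower at -1.23 ± 0.10. After MC38 supernatant against untreated culture, 19 of the 27 origin and fork genes were lower and 2 higher, where 32.5% of all genes were lower and 35.4% higher. The nuclease-helicase gene Dna2 fell by 4.28 on the log2 scale, to 14.12 CPM after MC38 supernatant against 274.3 CPM in untreated culture.

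D-type cyclins, which act upstream of cyclin E, did not move as a block. Ccnd1 was higher in TuMon1 than in TuMon2 (2.39 ± 0.35, adjusted p 1.24e-05), as was Ccnd2 (2.47 ± 0.48, adjusted p 0.000282), whereas Ccnd3 was lower (-0.64 ± 0.08, adjusted p 3.42e-07), averaging 78.66 CPM over TuMon1 libraries and 122.8 CPM over TuMon2 libraries. In both tumor monocyte groups Ccnd1 was higher than in the spleen, by 5.53 in TuMon1 and 2.87 in TuMon2, and Ccnd3 lower, with log2 differences of -1.90 in TuMon1 and -1.43 in TuMon2. Against MC38 spMon replicate 4 alone, the TuMon1 differences were 6.16 for Ccnd1 and -2.17 for Ccnd3. Ccnd2 had 51.4, 38 and 74.1 CPM in the MC38 spMon libraries with fat cell transcripts and 3.31 CPM in replicate 4, all below its 247, 277, 251 and 208 CPM in TuMon1. In culture, Ccnd1 had 127, 129 and 273 CPM after MC38 supernatant, 95.1, 93.4 and 87.3 CPM after LLC supernatant and 0.841, 23.8, 0.643 and 0.472 CPM without treatment. Both treated groups were above every untreated library, and the libraries that stood apart were MC38 supernatant replicate 3 and untreated replicate 2. Its log2 difference from untreated culture was 4.92 after MC38 supernatant (adjusted p 0.00932) and 3.97 after LLC supernatant (adjusted p 0.0213), and without the 5 libraries it was 7.59 after MC38 supernatant and 7.09 after LLC supernatant. Between the supernatants Ccnd1 did not pass (0.95 ± 1.18), whereas without the 5 libraries it was higher after MC38 supernatant (0.50 ± 0.06, adjusted p 3.72e-06).

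Cdkn1a, which encodes the CDK inhibitor p21, did not separate the tumor monocyte subsets. It had 1050, 918, 1030 and 1050 CPM in TuMon1, against 1010, 928, 1070 and 1050 CPM in TuMon2 (0.00, adjusted p 0.987, edgeR). Its level in tumors was far above that in the spleens, where it had 53.5, 31.3, 32.9 and 34.5 CPM in MC38 spMon (a log2 difference of 4.73 ± 0.24 for TuMon1) and 44.8, 41, 94.1 and 41.4 CPM in LLC spMon (4.20 ± 0.23 for TuMon2). In macrophages it was lower than in monocytes of the same tumor, at 469, 460, 435 and 408 CPM in MC38 TuMac (-1.19 ± 0.21, adjusted p 5.42e-05) and 542, 557, 542 and 690 CPM in LLC TuMac (-0.80 ± 0.20, adjusted p 0.00225). In culture it had 403, 414 and 425 CPM after MC38 supernatant, 103, 105 and 107 CPM after LLC supernatant and 24.5, 22.3, 31.1 and 32 CPM without treatment, so that no groups overlapped. MC38 against LLC supernatant gave a log2 difference of 1.99 ± 0.12 (adjusted p 1.3e-06). Cdkn1b, which encodes the CDK inhibitor p27, also did not pass between the tumor monocytes (-0.21, adjusted p 0.247) and was lower in macrophages than in monocytes (-0.62 in MC38 and -0.82 in LLC tumors). Rb1, the retinoblastoma gene, was lower in TuMon1 than in TuMon2 (-0.42 ± 0.13, adjusted p 0.01), averaging 69.07 CPM over TuMon1 libraries and 92.55 CPM over TuMon2 libraries. The proliferation marker gene Mki67 had 264, 297, 244 and 296 CPM in MC38 TuMac, against 92.6, 88.5, 104 and 59 CPM in LLC TuMac, without overlap. In TuMon1 it had 31.2, 21.8, 25.9 and 23.7 CPM, against 18.9, 26.8, 23.9 and 74 CPM in MC38 spMon, and these groups overlapped. The overlap came from the MC38 spMon libraries with fat cell transcripts, and replicate 4, at 74 CPM, lay above every TuMon1 library. Against replicate 4 alone the log2 difference of TuMon1 was -1.53. In TuMon2 it had 10, 11.4, 13.5 and 10.2 CPM, below its 54.3, 73.7, 80.3 and 69.9 CPM in LLC spMon.

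Samhd1, which degrades the nucleotides that the supply enzymes make, was expressed in every group. It was higher in TuMon1 than in TuMon2 (0.47 ± 0.09, adjusted p 0.000185), with 1640, 1490, 1810 and 1840 CPM in TuMon1, against 1180, 1190, 1140 and 1370 CPM in TuMon2. In macrophages it was lower than in monocytes of the same tumor, with log2 differences of -0.92 ± 0.09 in MC38 TuMac (839 to 939 CPM) and -1.04 ± 0.09 in LLC TuMac (567 to 661 CPM), where replication genes were higher. In culture it had 836, 843 and 691 CPM after MC38 supernatant, 369, 366 and 370 CPM after LLC supernatant and 1170, 919, 1150 and 1160 CPM without treatment. Samhd1 was lower after both supernatants than in untreated culture (-0.47, adjusted p 0.00127, for MC38 and -1.58 ± 0.10, adjusted p 2.02e-07, for LLC, edgeR).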

How the data were processed

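RNA was extracted with TRIzol and sequenced as strand-specific mRNA libraries, per the labels' protocols. CASAVA 1.8.2 and GRCm38/mm10 are named in the submitters' processing notes, and which aligner and counting software were used is not given in the sources used here. Per gene, the authors deposited estimated counts (expected counts per Entrez gene), of which 14.48% were not whole numbers. They were rounded, which changed a library total by at most 0.000368%. No other column held values of single samples.

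The 24 in vivo libraries and the 10 culture libraries were filtered (filterByExpr), scaled (TMM) and fitted separately with edgeR 4.0.16 in R 4.3.3 (robust quasi-likelihood test, 2-sided, Benjamini-Hochberg adjustment over all genes tested, threshold 0.05). A joint fit of all 34 libraries gave only the difference between tumors and culture. The fits had 13200, 12603 and 14582 genes and biological coefficients of variation of 0.177, 0.282 and 0.271. Differences of differences were interaction contrasts. The SE of a log2 difference was its size divided by the square root of its F statistic. CPM used TMM library sizes, and CPM per kilobase used exon lengths of GENCODE vM21. The fit was tested on simulated data.

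The genes, the marker and pathway lists and the naming rule were chosen with earlier results of these data known. The text names the gene of each role with the highest mean CPM, up to 3 called genes in each direction with the largest differences, every called gene that went against the majority, any other member by its value, and up to 4 genes of a pathway list with the smallest adjusted p, besides Samhd1, Cdkn1a, Cdkn1b, Ccnd1, Ccnd2, Ccnd3, Rb1 and Mki67.

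No pair of replicates agreed within sampling noise, with a chi-square per degree of freedom of at least 4.49. Replicate numbers are shared between groups, but the correlations of same-numbered libraries ran from -0.36 to 0.27, so they were not treated as pairs. Both extremes lay between MC38 supernatant and untreated culture. Between macrophages and monocytes of the same tumor they ran from -0.01 to 0.15 in MC38 and from -0.03 to 0.15 in LLC tumors. The own number was the best match for replicates 1, 2 and 4 in MC38 and 2, 3 and 4 in LLC tumors. Alternatives were scaling by relative log expression or by upper quartile, a looser filter (none) or a tighter one (at least 5 CPM in at least 3 libraries), a test with DESeq2 1.42.0, a replicate block, fits of only the groups compared, leaving out each library and, chosen after the data were seen, leaving out the 5 libraries with transcripts of other tissues.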

Additional observations from a re-analysis of the deposited data

Results flagged for a closer look

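Of 70 groups of 4 libraries tested for the gene with the highest mean CPM in each role and for the summed level, 6 held a library far from the other 3, where chance flags about 1 group in 20. Gins4 was 17.3 CPM in TuMon2 replicate 3, above 14.4 to 14.8 CPM in the other TuMon2 libraries. Pcna was 81.7 CPM in LLC spMon replicate 1, below 101 to 104 CPM in the others. Lig1 was 15 CPM in TuMon1 replicate 4, below 19.6 to 20.5 CPM in the others. Mcm6 was 21.9 CPM in MC38 spMon replicate 4, above 15.6 to 16.6 CPM in the others, and it is the MC38 spleen library that lacked fat cell transcripts. In untreated culture replicate 2, Pcna was 196 CPM, below 242 to 250 CPM, and Lig1 was 122 CPM, below 149 to 154 CPM. The part of carried-over transcripts in these values was not tested.

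Differences that themselves differed between settings, by an interaction term in edgeR, came in 3 sets. The tumor minus spleen difference of monocytes was larger in the MC38 model than in the LLC model for 39 genes, with Orc1 at 4.41, Rrm2 at 3.31 and Pole at 3.0 on the log2 scale. The macrophage minus monocyte difference was larger in MC38 tumors for 7 genes, with Cdc6 at 1.20, Mcm10 at 1.01 and Gins3 at 0.95. The MC38 minus LLC difference of monocytes was larger in tumors than in culture for 40 genes, with Tk1 at 3.51, Pole at 3.08 and Orc1 at 3.08.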

How the results depend on the processing

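Of the alternative fits, 208 gave a count of replication genes called within 1.5 times of the reported one and 15 did not. For named genes, 2605 alternative values kept their direction and call, 132 lost the call, 12 gained it and 22 changed sign. The counts that moved were those between the spleens (19 as reported, 0 without the 5 libraries with transcripts of other tissues, 2 with only those groups fitted, 9 to 28 with a library left out), TuMon1 against MC38 spMon (38 as reported, 21 without the 5 libraries), the macrophage minus monocyte interaction (7 as reported, 2 to 8 with a library left out) and MC38 against LLC supernatant (23 as reported, 15 to 22 with a library left out). The spleen count was 12 without LLC spMon replicate 3 or MC38 spMon replicate 1 or 2 and 9 without MC38 spMon replicate 3. With a library left out, the counts ran from 36 to 40 for TuMon1 against TuMon2, stayed at 44 for MC38 against LLC TuMac and ran from 38 to 40 for the tumor minus spleen interaction. Between the spleens, Slbp was 0.01 with upper quartile scaling, 0.09 without the 5 libraries and 0.04 with only those groups fitted. Gins4 there was -0.08 without the 5 libraries and ran from -0.06 to 0.03 with a library left out (-0.01, -0.01, -0.03 and -0.06 without LLC spMon replicate 2 or 3 or MC38 spMon replicate 2 or 3), while Pcna was 0.13, Rrm2 0.1 and Uhrf1 0.11 without the 5 libraries. E2f1 in TuMon2 against LLC spMon was -0.02 with upper quartile scaling and ran from -0.01 (without TuMon2 replicate 3) to 0.14 with a library left out. Pold1 in the macrophage minus monocyte interaction ran from -0.13 to 0.02 with a library left out (0.02, 0 and 0.02 without TuMon2, LLC TuMac or TuMon1 replicate 3). Gins4 between the supernatants was -0.02 with relative log expression scaling, -0.03 with upper quartile scaling, -0.02 with DESeq2, and it ran from -0.01 (without LLC supernatant replicate 2) to 0.08 with a library left out. Pcna after MC38 supernatant against untreated culture was -0.01 with upper quartile scaling and -0.05 without untreated replicate 2. The cause was not tested. With a replicate block the counts were 41, 44, 20, 39, 35, 41 and 39 for TuMon1 against TuMon2, MC38 against LLC TuMac, the spleens, TuMon1 and TuMon2 against their spleens, and MC38 and LLC TuMac against their monocytes. They were 21, 42 and 42 between the supernatants and for MC38 and LLC supernatant against untreated culture, so the block moved no count by over 1.5 times. Upper quartile scaling gave a median of all genes of -0.18 for TuMon1 and -0.15 for TuMon2 against spleen (-0.04 and -0.05 as reported) and of 0.09 and 0.21 for MC38 and LLC TuMac against their monocytes (-0.02 and 0.06 as reported). In the last pair it called 58.1% and 66.1% of the called genes higher (47.1% and 52.6% as reported). Depth limits genes at a few CPM or less, such as Orc1, whose SE between TuMon1 and TuMon2 was 0.41, and 11 of the 44 genes held non-whole estimated counts in some library, 4 of them in all 34.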
